A study of Homo sapiens with 12 samples.

Results

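The histone genes described here were those whose symbols start with H1-, H2AC, H2BC, H3C or H4C followed by a number, a rule on names that uses no measured value. It found 71 genes among the 22784 symbols of the expression table, namely 8 H1, 16 H2A, 21 H2B, 13 H3 and 13 H4 genes. Of these, 52 (6, 13, 13, 9 and 11, respectively) passed the minimum of a normalized count of 10 in at least 3 libraries and were tested together with the other genes, 14839 in all. The cells were SK-UT-1, an established human line from a uterine leiomyosarcoma, a malignant tumor of smooth muscle. They received for 48 h either the DMSO vehicle, JQ1 at 5 µM or I-BET 762 at the same concentration. Both compounds are inhibitors of the BET (bromodomain and extra-terminal) proteins, which read acetylated lysines on histones, and they block this binding. Total RNA was converted to strand-specific libraries, and 3 DMSO libraries (13, 14 and 15), 4 JQ1 libraries (17 to 20) and 3 I-BET 762 libraries (21 to 23) were analysed. DMSO library 16 and I-BET 762 library 24, which the labels also name, are not analysed here. No label says that the libraries came from separate cultures, so the p-values measure the spread between these libraries, which may be technical.

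Between 35564586 and 39658989 reads per library fell on genes. The upper 95% limit of a count of 0, which is 3 reads, amounted to 2.73 to 3.30 normalized counts and covers counting error only. Of 10 smooth muscle markers, 8 were tested, with DMSO means of 7071 for ACTA2, 1599 for TAGLN and 187 for DES, the genes for smooth muscle actin, transgelin and desmin. With JQ1, 6 of these 8 markers fell, and with I-BET 762, 7 fell, while 1 marker, SMTN, was higher at an unadjusted p under 0.05 in each comparison. Among 9 markers of epithelial, endothelial and blood cells, the keratin gene KRT19 and the epithelial adhesion gene EPCAM reached the tested level, both fell with each inhibitor, and the other markers had a mean of at most 8.62 in DMSO, with PTPRC, which marks blood cells, at 0, or are not analysed here. Their part in the histone results was not tested. Both response genes of BET inhibition looked at, HEXIM1 and SERPINI1, rose with each compound.

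Replication-dependent histone genes encode the H2A, H2B, H3, H4 and H1 proteins that package newly made DNA, and their mRNAs accumulate in S phase and are degraded when DNA synthesis stops. Most of these genes lie in clusters, lack introns, and end their mRNA in a conserved stem-loop bound by the stem-loop binding protein SLBP in place of a poly(A) tail. A library of total RNA, as made here, does not depend on that tail. Linker histone H1 binds where DNA enters and leaves the nucleosome, and H1-10 is a replacement form made outside S phase. In a bulk culture, a changed share of cells in S phase and a changed amount of histone RNA per cell cannot be told apart. By flow cytometry the authors found a smaller S phase share with each compound, at the same dose and an earlier time.

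All 71 genes were matched to the Gencode V44 annotation (GRCh38), in which 67 are protein coding and 4 (H2BC16P, H2BC19P, H2BC20P and H3C9P) are pseudogenes. The transcript used for each gene has 1 exon. Chromosome 6 holds 55 of them, chromosome 1 holds 13, and H1-10 and H2BC12L lie alone on chromosomes 3 and 21. The 3′ end pattern GGNNCTTNNNAGNNCC was searched within 200 bases after the stop codon on the coding strand, and it was found in 64 of the 67 coding members, against 90 (0.472%) of 19061 coding genes in all. H1-10 and H2BC12L were among the coding members without it. The pattern started 23 to 68 bases after the stop codon, with a median of 36. There were 10 distinct 16-base forms, of which the most frequent stood in 38 members. The forms of members that carry the results are given as DNA of the coding strand, read from the hg38 genome, with the 16 bases of the stem-loop in capitals, a 6-base stem on either side of a 4-base loop, and 5 flanking bases on each side.
H1-2: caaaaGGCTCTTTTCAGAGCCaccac
H2BC6: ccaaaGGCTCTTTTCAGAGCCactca
H2BC12: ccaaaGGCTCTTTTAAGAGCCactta
H3C6: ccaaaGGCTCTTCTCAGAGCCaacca
H3C7: ccaaaGGCTCTTTTCAGAGCCaccaa
H4C3: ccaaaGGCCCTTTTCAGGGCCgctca
H4C8: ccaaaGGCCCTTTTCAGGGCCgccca
H4C9: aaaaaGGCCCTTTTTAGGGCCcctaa
H1-2, H2BC6 and H3C7 share the most frequent form. H2BC12 has the form found in 8 members of the H1, H2A and H2B families. The 8 H4 genes with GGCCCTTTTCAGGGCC include the abundant H4C3 and also H4C8, whereas H4C9 shares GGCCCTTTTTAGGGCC with H4C12, H4C14 and H4C15. The form of H3C6 was found in no other member.

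In DMSO the level of the members ran from 0 to a normalized count of 55579.6 for H1-4, and 14 members were above 10000. Levels are compared between genes per kilobase of the transcript used for each. All annotated exons of a gene can be longer, at 2881 bases against 460 for H2BC4, 861 against 486 for H2BC5 and 1668 against 519 for H2AC6. If reads were counted over all exons, the levels per kb of such genes are too high and their order may differ. Among the H1 genes, H1-4 stood highest at 70622 ± 3783 (SD, n = 3) normalized counts per kb, followed by H1-2 at 25750 ± 1245, and no neighbours in the order of the 8 H1 genes overlapped between libraries. H1-4 held 66.3% of the normalized counts of the H1 genes. H1-5, another S phase linker histone, was at the bottom, with 0 reads in each DMSO and I-BET 762 library and at most 2 reads in a JQ1 library.

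In each core family a few genes carried most of the counts. H2AC6 led the H2A genes at 43247 ± 972 normalized counts per kb of transcript, ahead of H2AC20 at 31374 ± 4055 and H2AC11 at 27249 ± 1552. The last pair overlapped between libraries. H2BC4 and H2BC5 led the H2B genes at 46456 ± 2188 and 37647 ± 1433 per kb of transcript. The places of H2AC6, H2BC4 and H2BC5 in this order depend on the length used. The exons of H2BC4 also overlap HFE and ENSG00000291336 on the opposite strand. H3C2 alone held 67.4% of the normalized counts of the H3 genes, and stood at 46330 ± 1351 per kb against 15433 ± 1397 for H3C13. Among the H4 genes, H4C3, H4C2 and H4C5 stood at 30900.4 ± 1609, 26448 ± 1041 and 20322 ± 435 per kb, with no overlap between these neighbours. All of the H4 genes encode the same protein or nearly so, yet H4C9 stood at 20.4 ± 7.14 per kb, and H4C7 and H4C13 had no reads in DMSO. The 19 members that were not tested had at most 15 reads in any library, and 12 of them at most 3.

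**Figure D1:**
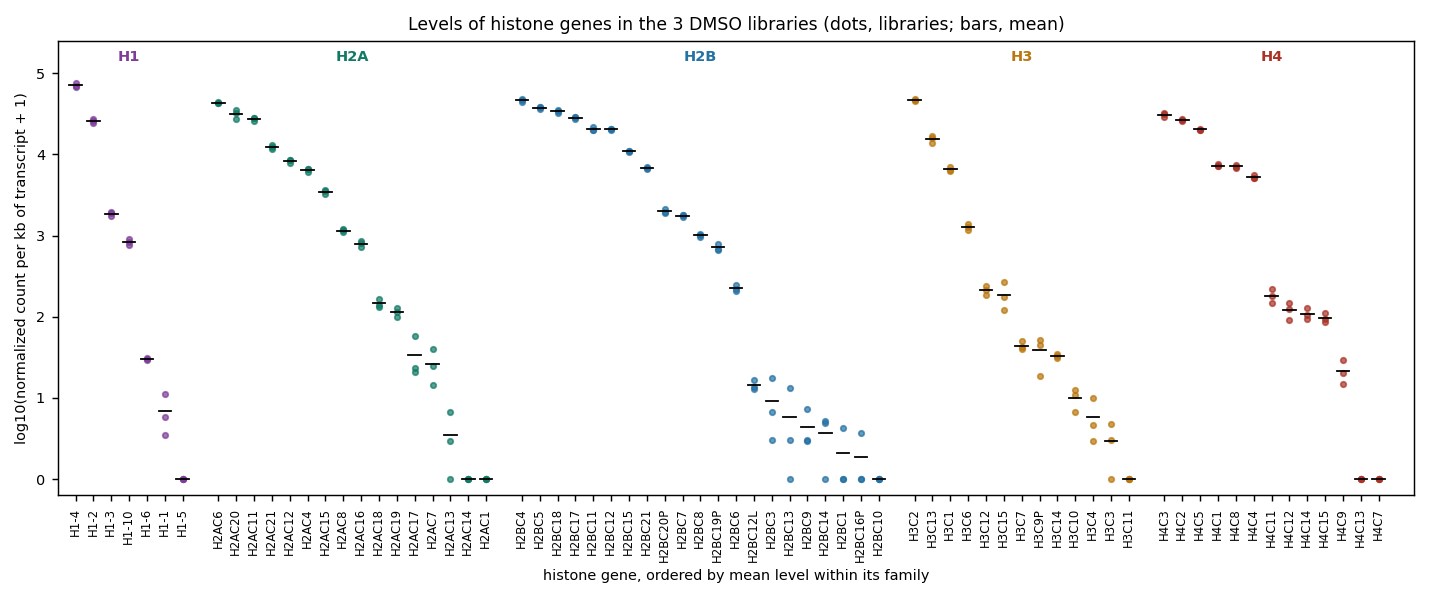
Level of 70 histone genes in DMSO, as log10 of the normalized count per kb of transcript plus 1, for each of the 3 DMSO libraries (dots) with the mean of the plotted counts (bars), ordered within each family. The genes run from H1-4, at 70622 normalized counts per kb, down to genes with 0 reads such as H1-5, H4C7 and H4C13.

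A gene is called higher or lower, or said to have risen or fallen, when its Benjamini-Hochberg adjusted p-value from limma was under 0.05 and its fold change was over 1.5, a log2 fold change beyond 0.58. With JQ1, 20 of the 52 tested members (38.5%) rose and 1 (1.92%) fell, against 13.3% higher and 22.8% lower among all genes tested. With I-BET 762, 10 (19.2%) rose and 3 (5.77%) fell, against 8.96% higher and 17.9% lower among all genes. The median log2 fold change of the members was 0.46 with JQ1 and 0.17 with I-BET 762, beside 0.01 and -0.00 over all genes. When the libraries were rescaled to equal totals, the members called were 11 higher and 3 lower with JQ1, and 8 higher and 6 lower with I-BET 762. That scaling moved the median of all genes to -0.18 and -0.10, and the members' medians were then 0.28 and 0.08. The 9 rises with JQ1 that this scaling took under the threshold were those of H1-2, H1-3, H1-10, H2AC8, H2AC12, H2AC19, H2BC8, H4C12 and H4C15, and with I-BET 762 they were those of H1-3 and H4C1.

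H1-3, H1-6, H2AC17, H2BC6, H2BC19P, H2BC20P, H3C7, H3C12 and H4C9 passed the test in both comparisons, which share their DMSO libraries, and H4C1 was the remaining gene that rose with I-BET 762. A further 11 genes, among them H1-2, H1-10, H2AC8, H2AC12, H2AC19, H2BC8, H2BC12, H4C8, H4C12 and H4C15, rose with JQ1, and none of these 11 passed the test with I-BET 762. At an adjusted p under 0.05 with any fold, 33 members were higher and 5 lower with JQ1 (36.0% and 35.6% of all genes), and 22 were higher and 7 lower with I-BET 762 (29.9% and 31.3%). Every JQ1 library lay above every DMSO library for 29 members and below for 5, where 34.1% and 34.3% of all genes did so. With I-BET 762 the counts were 27 above and 10 below, where 34.8% and 36.2% of all genes did so. In both comparisons the members' share above DMSO was larger than that of all genes, and their share below was smaller.

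**Figure D2:**
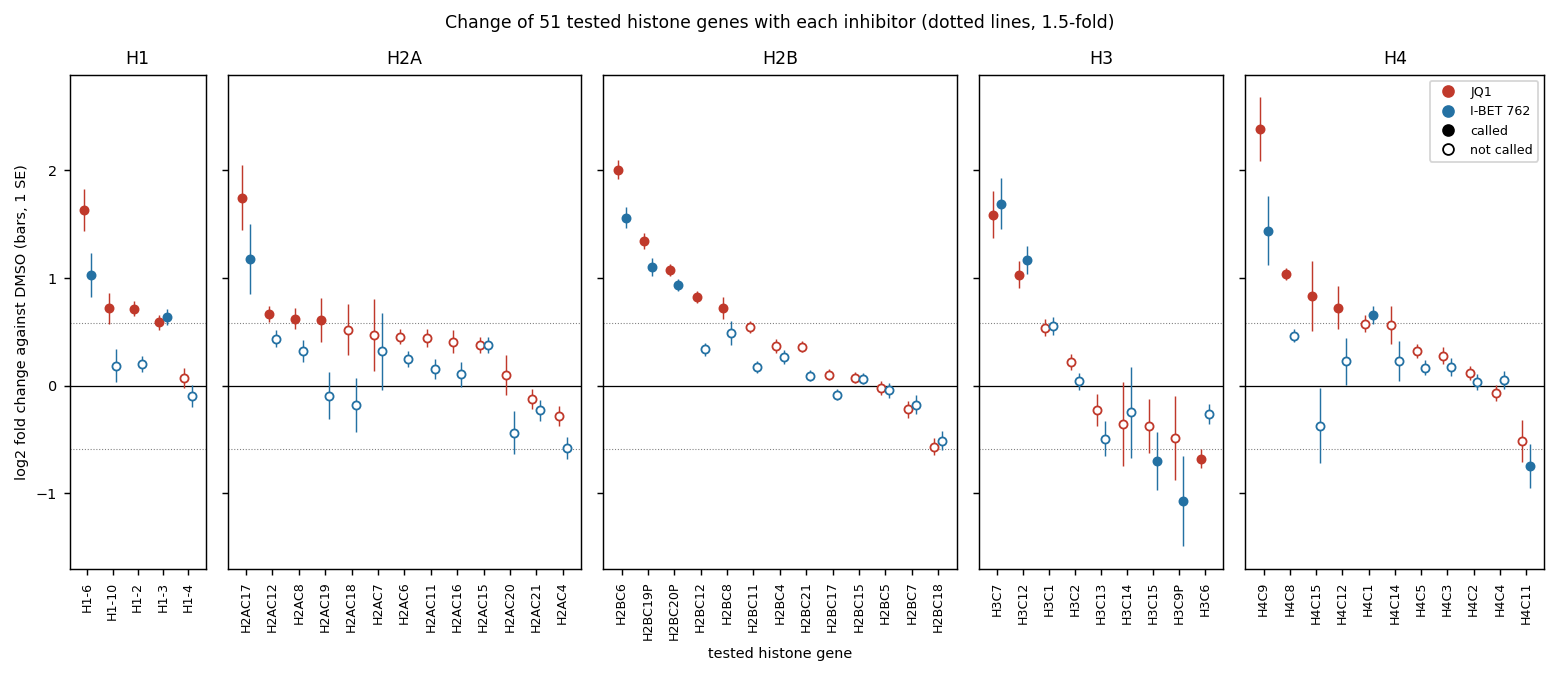
Log2 fold change against DMSO of 51 tested histone genes with JQ1 (red) and I-BET 762 (blue), by family and ordered by the JQ1 value, with 1 SE as bars and filled symbols for genes past the test. H4C9, H2BC6 and H2AC17 head the JQ1 values at 2.38, 2.01 and 1.75, and H3C6 is the 1 filled symbol below 0 with JQ1. H4C9 and H2AC17 passed the minimum count only with treated libraries.

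Of the linker histone genes, 5 of the 6 tested rose with JQ1 and 2 with I-BET 762, and the medians were 0.72 and 0.28 on the log2 scale. At equal totals 2 rose with JQ1 and 1 with I-BET 762, with medians of 0.53 and 0.19. H1-10, the replacement form named above, showed 1171, 1258 and 1356 normalized counts in DMSO, 2648, 1657, 2594 and 1617 with JQ1 and 1408, 1454 and 1441 with I-BET 762. JQ1 libraries 17 and 19 stood well above 18 and 20, although each exceeded every DMSO library. The rise was 1.64-fold with JQ1 (log2 0.72 ± 0.14, adjusted p = 0.000294), and with I-BET 762 the ratio was 1.14 (adjusted p = 0.302). The uneven JQ1 libraries also enter the spread used for I-BET 762, whose libraries all exceeded DMSO. The adjusted limma p-value with I-BET 762 ran from 0.00518 to 0.658 over the alternative fits. The exons of H1-10 overlap the antisense gene H1-10-AS1, and whether the authors counted by strand is not given in the sources used here.

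H1-2, an S phase linker histone at chr6:26055740-26056470, had 17861, 18938 and 19671 normalized counts in DMSO. The JQ1 libraries held 33847, 31011, 32670.4 and 26436, and the I-BET 762 libraries held 22554, 21593 and 20738. Every treated library exceeded the DMSO libraries, and the JQ1 libraries exceeded those of I-BET 762. H1-2 rose 1.64-fold with JQ1 (log2 0.71 ± 0.07, adjusted p = 1.99e-07) and differed 1.15-fold with I-BET 762 (adjusted p = 0.0321). At equal totals the JQ1 log2 fold changes of H1-2 and H1-10 were both 0.53, under the fold threshold.

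H1-3 was the linker gene that passed the test with both compounds among those of S phase. Its libraries read 1367, 1455 and 1504 in DMSO, 2272, 2258, 2278 and 1892 with JQ1 and 2373, 2296 and 2077 with I-BET 762, so both treated groups lay above DMSO and overlapped each other. Its fold changes were 1.505 with JQ1 (log2 0.59 ± 0.07, adjusted p = 1.51e-06), at the edge of the threshold, and 1.56 with I-BET 762 (log2 0.64 ± 0.08, adjusted p = 2.24e-06). When JQ1 library 17, 18 or 19 or DMSO library 13 was left out, H1-3 no longer passed the fold threshold with JQ1.

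H1-4, the most abundant linker gene, did not pass the test. The DMSO libraries held 53175, 58910.1 and 54654 normalized counts, the JQ1 libraries 64012, 56974, 67632 and 47052 and the I-BET 762 libraries 54078, 52102 and 49674. The JQ1 libraries lay on both sides of DMSO, library 20 lowest and library 19 highest, and I-BET 762 overlapped DMSO. Its log2 fold change had a 95% interval of -0.13 to 0.27 for JQ1 and -0.31 to 0.12 for I-BET 762, so a change of 1.5-fold lay outside both.

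H1-6, the linker histone of the male germ line, was low in DMSO at 21.3, 20.3 and 21.8 normalized counts. It reached 79.1, 72.9, 54.0 and 66.9 with JQ1 and 36.4, 50.1 and 47.3 with I-BET 762, with no overlap among the 3 groups. The rises were 3.10-fold (log2 1.63 ± 0.19, adjusted p = 1.35e-06) and 2.04-fold (log2 1.03 ± 0.21, adjusted p = 0.000442). H1-1 and H1-5 were under the tested level. By class, 2 of the 3 tested S phase linker genes rose with JQ1 and 1 with I-BET 762, both replacement genes rose with JQ1 and 0 with I-BET 762 (1 at an adjusted p under 0.05 with any fold), and the 1 tested germline gene rose with both.

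H2A and H2B form the dimers that flank the H3-H4 core of the nucleosome. Of 13 tested H2A genes, 4 rose with JQ1 and 1 with I-BET 762, with none lower (1 and 3 lower at an unadjusted p under 0.05) and medians of 0.46 and 0.15 (0.27 and 0.06 at equal totals). Of 13 tested H2B genes, 5 rose with JQ1 and 3 with I-BET 762, with none lower (2 and 1 lower at an unadjusted p under 0.05) and medians of 0.37 and 0.17 (0.19 and 0.08 at equal totals). At equal totals 1 H2A gene and 4 H2B genes rose with JQ1, and 1 and 3 rose with I-BET 762, while 1 H2B gene was called lower in each comparison and 1 H2A gene with I-BET 762.

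H2BC6 had the highest fold change of the H2A and H2B genes with either compound. The gene is annotated at chr6:26172059-26184655, and the coding transcript used here starts within that span. Its normalized counts were 114, 98 and 103 in DMSO, 402, 416, 456 and 426 with JQ1 and 305, 324 and 305 with I-BET 762. The groups were far apart, with the lowest JQ1 library above the highest of I-BET 762, and the latter above DMSO. The rises were 4.02-fold (log2 2.01 ± 0.09, adjusted p = 1.50e-11) and 2.95-fold (log2 1.56 ± 0.10, adjusted p = 1.64e-09). Over 10.6% of its 75-base stretches an exact copy exists elsewhere, and its annotation overlaps ENSG00000283064 on the opposite strand. All annotated exons of H2BC6 cover 2585 bases against 470 in the transcript used, so reads of another transcript may be counted.

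H2BC12, an abundant H2B gene at chr6:27146361-27146855, had 9869, 10272 and 10030.4 normalized counts in DMSO. With JQ1 the libraries held 18481, 18175, 18515 and 16065, of which library 20 was lowest, and with I-BET 762 they held 13238, 12769.6 and 12126. No group overlapped another. H2BC12 rose 1.77-fold with JQ1 (log2 0.82 ± 0.05, adjusted p = 1.50e-09), and its 1.26-fold difference with I-BET 762 (adjusted p = 0.000117) was under the threshold.

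The promoters of H2BC6 and H2BC12, which rose, and of H3C6, which fell with JQ1, are shown as RefSeq gives them on GRCh38.p14, 250 bases before to 50 bases after the transcription start on the gene's own strand. Capitals mark the octamer ATTTGCAT, the CCAAT box CCAAT and the TATA motif TATAAA, searched on both strands, so that CCAAT on the reverse strand reads ATTGG and TATAAA reads TTTATA, and overlapping matches run together.
H2BC6, chr6:26183511-26183810, plus strand: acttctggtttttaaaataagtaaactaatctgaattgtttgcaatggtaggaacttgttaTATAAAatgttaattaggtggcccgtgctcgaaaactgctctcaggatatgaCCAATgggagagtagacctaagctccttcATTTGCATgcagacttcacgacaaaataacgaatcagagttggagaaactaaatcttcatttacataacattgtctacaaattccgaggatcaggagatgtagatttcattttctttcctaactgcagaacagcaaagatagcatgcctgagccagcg
H2BC12, chr6:27146809-27147108, minus strand: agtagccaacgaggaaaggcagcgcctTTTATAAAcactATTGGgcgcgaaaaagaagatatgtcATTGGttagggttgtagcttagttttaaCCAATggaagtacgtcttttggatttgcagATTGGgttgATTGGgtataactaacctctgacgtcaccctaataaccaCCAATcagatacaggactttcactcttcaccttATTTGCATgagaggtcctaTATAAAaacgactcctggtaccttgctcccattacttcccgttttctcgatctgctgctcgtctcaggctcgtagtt
H3C6, chr6:26223928-26224227, plus strand: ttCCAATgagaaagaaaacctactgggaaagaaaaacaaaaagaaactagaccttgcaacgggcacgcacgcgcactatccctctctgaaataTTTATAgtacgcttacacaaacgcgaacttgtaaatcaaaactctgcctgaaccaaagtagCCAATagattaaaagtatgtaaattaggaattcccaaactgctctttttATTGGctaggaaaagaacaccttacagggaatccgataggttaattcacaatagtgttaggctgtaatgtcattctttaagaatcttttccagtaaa
The octamer began 108 bases before the start of H2BC6 and 46 before that of H2BC12, and the H3C6 window holds none. Over the 60 members with a RefSeq promoter, the octamer stood in 14 of 17 H2B, 11 of 15 H2A and 1 of 10 H3 promoters and in none of 7 H1 and 11 H4 promoters, against 1.77% of 35116 promoters. A CCAAT box stood in every H2A, H2B and H3 promoter of the table, in 6 of 7 H1 promoters and in 2 of 11 H4 promoters, against 34.6% overall. TATAAA stood in 42 of the 60 (70.0%), against 11.5%. A match is a run of letters and not a shown binding site. Of the 18 tested H2A and H2B genes with an octamer, 5 rose with JQ1 and 2 with I-BET 762, and of the 5 without, 1 rose with JQ1 and 0 with I-BET 762.

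H2AC17 was the single H2A gene that rose with both compounds. Its normalized counts were 9.69, 27.7 and 10.9 in DMSO, 53.8, 63.1, 37.0 and 52.7 with JQ1 and 31.5, 34.1 and 36.4 with I-BET 762. DMSO library 14 came close to the treated libraries but did not overlap them. The rises were 3.36-fold (log2 1.75 ± 0.30, adjusted p = 8.44e-05) and 2.27-fold (log2 1.18 ± 0.33, adjusted p = 0.00513). H2AC17 shares exon sequence with H3C12 on the same strand in V44, so reads of the pair may not be separable. H2AC17, H2AC7, H3C9P and H4C9 each had a DMSO library under the minimum of 10 and passed the filter only with treated libraries. Without these 4 genes 18 of 48 members rose with JQ1 and 8 with I-BET 762. The demand that every DMSO library reach the minimum was not applied to all genes, so no matching share is given.

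H2AC12 and H2AC8 also rose with JQ1. H2AC12 stood at 3789 ± 192 (SD, n = 3) in DMSO and 6042 ± 677 (SD, n = 4) with JQ1, a 1.59-fold rise (adjusted p = 8.69e-07). H2AC8 went from 594 ± 25.0 (SD, n = 3) to 921 ± 123 (SD, n = 4), a 1.54-fold rise (adjusted p = 2.73e-05). At equal totals both were under the fold threshold, at log2 values of 0.48 and 0.44, and H2AC8 was also under it without JQ1 library 17 (0.584) or 19 (0.56).

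Among the abundant members, H2AC6 had 22175, 23027 and 22134 normalized counts in DMSO, 29945, 33964, 32365 and 27259 with JQ1 and 28404, 26516 and 25198 with I-BET 762. All treated libraries exceeded DMSO, while the ratios of 1.37 (adjusted p = 1.55e-05) and 1.19 (adjusted p = 0.00690) stayed under 1.5-fold. H2AC11 read 12557, 13782 and 13963 in DMSO, 19754, 18694, 20278 and 14922 with JQ1 and 15792, 14869 and 14204 with I-BET 762, and its ratios were 1.362 (adjusted p = 0.000182) and 1.11 (adjusted p = 0.148). H2AC20, next to H2AC11 in DMSO level per kb, was uneven across the JQ1 libraries at 22243, 13972, 22037 and 10769, a spread that covered the DMSO values of 13329.6, 15888 and 17279. With I-BET 762 it read 11156, 11712 and 11305, below each DMSO library at a ratio of 0.739 (adjusted p = 0.0678), which did not pass the test. The uneven JQ1 libraries enter the spread behind this limma p-value, which ran from 5.13e-06 to 0.196 over the alternative fits.

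H2BC4 was higher in every treated library, at 27839, 28479, 30134 and 24304 with JQ1 and 26671, 25433 and 24949 with I-BET 762 beside 21614, 22232 and 20264 in DMSO, with ratios of 1.29 (adjusted p = 8.50e-05) and 1.20 (adjusted p = 0.00341). H2BC5, the second H2B gene by level, read 17497, 18623 and 18769 in DMSO, 18125, 19063, 18729 and 16287 with JQ1 and 19249.6, 17632 and 16424 with I-BET 762. The H2BC5 libraries of the 3 groups overlapped, and the 95% interval of its log2 fold change was -0.16 to 0.11 with JQ1 and -0.19 to 0.10 with I-BET 762. H2BC18 read 16044, 17109 and 16763 in DMSO, 12806, 10509, 12402 and 9546 with JQ1 and 12155, 11830.2 and 11082 with I-BET 762, below DMSO in every treated library, at ratios of 0.676 (adjusted p = 1.13e-05) and 0.702 (adjusted p = 9.98e-05) that did not reach 1.5-fold. Exact copies of 59.3% of its stretches exist elsewhere.

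The pseudogenes H2BC19P and H2BC20P on chromosome 1 rose with both compounds. H2BC19P read 339.9, 330.0 and 389 in DMSO, 931, 854, 964 and 843 with JQ1 and 774, 711 and 793 with I-BET 762, which is 2.54-fold (adjusted p = 2.83e-10) and 2.15-fold (adjusted p = 1.53e-08). H2BC20P rose 2.10-fold (adjusted p = 5.09e-11) and 1.91-fold (adjusted p = 1.56e-09). Copies cover 94.7% and 78.7% of their stretches, and each overlaps an unnamed gene on the same strand, so their values may include reads from other loci.

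H2A and H2B genes lie head to head in 11 pairs with starts 194 to 251 bases apart, and both genes of 8 pairs were tested. The sign of the log2 fold change was shared within 7 of the 8 pairs with JQ1 and 5 with I-BET 762, and the median absolute difference within a pair was 0.21 and 0.24. H2AC12 and H2BC12 were at 0.67 and 0.82 with JQ1, and H2AC6 and H2BC4 at 0.46 and 0.37. H2AC17 and H2BC17 were farthest apart, at 1.75 and 0.10 with JQ1 and at 1.18 and -0.08 with I-BET 762. Their levels also differed, with DMSO means of 16.1 and 13196 normalized counts.

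H3 and H4 form the central tetramer of the nucleosome. Of 9 tested H3 genes, 2 rose and 1 fell with JQ1, and 2 rose and 2 fell with I-BET 762. The H3 median was -0.23 with JQ1 and -0.25 with I-BET 762, the values of H3C13 and H3C14, respectively. It kept its sign at equal totals (-0.41 and -0.34, with 3 genes then called lower with I-BET 762). H3C13, H3C14 and H3C15, with copies elsewhere for over 50% of their stretches, the pseudogene H3C9P and H3C6 were negative with both compounds. H3C1, H3C2, H3C7 and H3C12 were positive with both. The summed H3 counts were 1.13 times the DMSO mean with JQ1 and 1.01 times with I-BET 762, with overlapping groups. Of 11 tested H4 genes, 4 rose and 0 fell with JQ1, and 2 rose and 1 fell with I-BET 762 (1 gene lower at an unadjusted p under 0.05 in each), with medians of 0.56 and 0.17 (0.38 and 0.08 at equal totals). At equal totals 2 H4 genes rose and 1 fell with JQ1, and 1 rose and 1 fell with I-BET 762. H4C9, among the rises with each compound, passed the minimum count only with treated libraries.

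H3C7, at chr6:26250142-26250635, had 20.3, 24.0 and 19.1 normalized counts in DMSO. It reached 51.6, 72.9, 94.0 and 51.7 with JQ1 and 74.8, 78.2 and 59.1 with I-BET 762. Both treated groups lay above DMSO and overlapped each other. The rises were 3.01-fold (log2 1.59 ± 0.22, adjusted p = 8.02e-06) and 3.23-fold (log2 1.69 ± 0.24, adjusted p = 1.40e-05). H3C12 gave a like picture, with 121, 108 and 95.6 in DMSO, 199, 239, 232 and 217 with JQ1 and 279, 249.6 and 207 with I-BET 762. Its rises were 2.04-fold (adjusted p = 1.62e-06) and 2.25-fold (adjusted p = 1.51e-06).

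H3C6 was the member that fell with JQ1. Its normalized counts were 569, 673 and 606 in DMSO, 402, 376, 421 and 339.8 with JQ1 and 541, 515 and 483 with I-BET 762. The 3 groups did not overlap, JQ1 lowest. The ratio was 0.625 with JQ1 (log2 -0.68 ± 0.09, adjusted p = 3.41e-06) and 0.834 with I-BET 762 (adjusted p = 0.0232), the latter under the fold threshold. All annotated exons of H3C6 cover 2679 bases against 482 in the transcript used, so its counts may include reads of another transcript.

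H3C2, the most abundant H3 gene, read 22926, 24287 and 23811 in DMSO, 27769, 29047, 30341 and 23491 with JQ1 and 25644, 24458 and 23023 with I-BET 762. The groups overlapped, and the ratios were 1.16 (adjusted p = 0.0129) and 1.03 (adjusted p = 0.665). H3C13, on chromosome 1, read 6517, 7399.7 and 7797 in DMSO, 7583, 5262, 8134 and 4441 with JQ1 and 5258, 5116 and 5023 with I-BET 762. In H3C13, JQ1 library 17 lay among the DMSO libraries, 19 above them and 18 and 20 below them, and I-BET 762 was below DMSO throughout at a ratio of 0.711 (adjusted p = 0.0148). H3C15 and the pseudogene H3C9P were called lower with I-BET 762 from low counts, 96.0 ± 37.9 (SD, n = 3) against 56.1 ± 8.66 (SD, n = 3) for H3C15 and 15.6 ± 7.39 (SD, n = 3) against 6.28 ± 0.642 (SD, n = 3) for H3C9P. The adjusted p-values were 0.0330 and 0.0356, and every stretch of H3C15 has a copy elsewhere in the genome. Both calls were lost without DMSO library 14, I-BET 762 library 21 or I-BET 762 library 22, the former also without DMSO library 15, and the latter also without DMSO library 13 or I-BET 762 library 23. H4C11 was then the 1 member left lower without DMSO library 14 or I-BET 762 library 22.

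H4C8, at chr6:26277609-26285638, was the most abundant member whose rise was over 2-fold. The DMSO libraries held 2803, 3067 and 2853 normalized counts, the JQ1 libraries 5492, 6368, 5961 and 6081 and the I-BET 762 libraries 4246, 3837 and 3942. The groups did not overlap. The rise with JQ1 was 2.05-fold (log2 1.04 ± 0.06, adjusted p = 1.53e-10), and the ratio with I-BET 762 was 1.38 (adjusted p = 7.14e-06). An unnamed gene, ENSG00000289447, overlaps it on the opposite strand. All annotated exons of H4C8 cover 2163 bases against 409 in the transcript used, so reads of another transcript may be counted.

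H4C9, at chr6:27139282-27139678, had the highest log2 fold change of all members with JQ1, from a level near the floor. It read 7.75, 11.1 and 5.46 in DMSO, 43.95, 38.1, 49.0 and 49.7 with JQ1 and 23.6, 34.1 and 14.8 with I-BET 762. No group overlapped another. The rises were 5.22-fold (log2 2.38 ± 0.30, adjusted p = 2.74e-06) and 2.71-fold (log2 1.44 ± 0.32, adjusted p = 0.00108), on the log2(normalized count + 1) scale, which understates the change of a low gene.

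H4C1 rose 1.58-fold with I-BET 762 (adjusted p = 4.07e-06) and stood at 1.49-fold with JQ1 (adjusted p = 4.79e-06), just under the threshold, with 2880.3, 3025 and 2871 normalized counts in DMSO, 4586, 4816, 4438 and 3695 with JQ1 and 5019, 4559 and 4286 with I-BET 762. At equal totals its log2 value with I-BET 762 was 0.56, under the threshold. The abundant H4C3 read 11774, 13000.3 and 12769.6 in DMSO, 15263, 16276, 16730.4 and 12732 with JQ1 and 15127, 14028 and 13239 with I-BET 762, at ratios of 1.21 (adjusted p = 0.00484) and 1.13 (adjusted p = 0.0840). H4C2 read 9876, 10682 and 10228 in DMSO, 10885, 12669, 11082 and 10022 with JQ1 and 11282, 10436 and 9859.9 with I-BET 762, and its 95% interval was -0.03 to 0.26 and -0.12 to 0.19 on the log2 scale. The H4C2 groups overlapped, and for H4C3 JQ1 library 20 fell within the DMSO range. H4C11 fell with I-BET 762, from 69.9 ± 14.2 (SD, n = 3) to 41.3 ± 8.55 (SD, n = 3) (ratio 0.597, adjusted p = 0.00517). With JQ1 its ratio was 0.700 (adjusted p = 0.0247), and copies exist for 91.4% of its stretches.

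**Figure D3:**
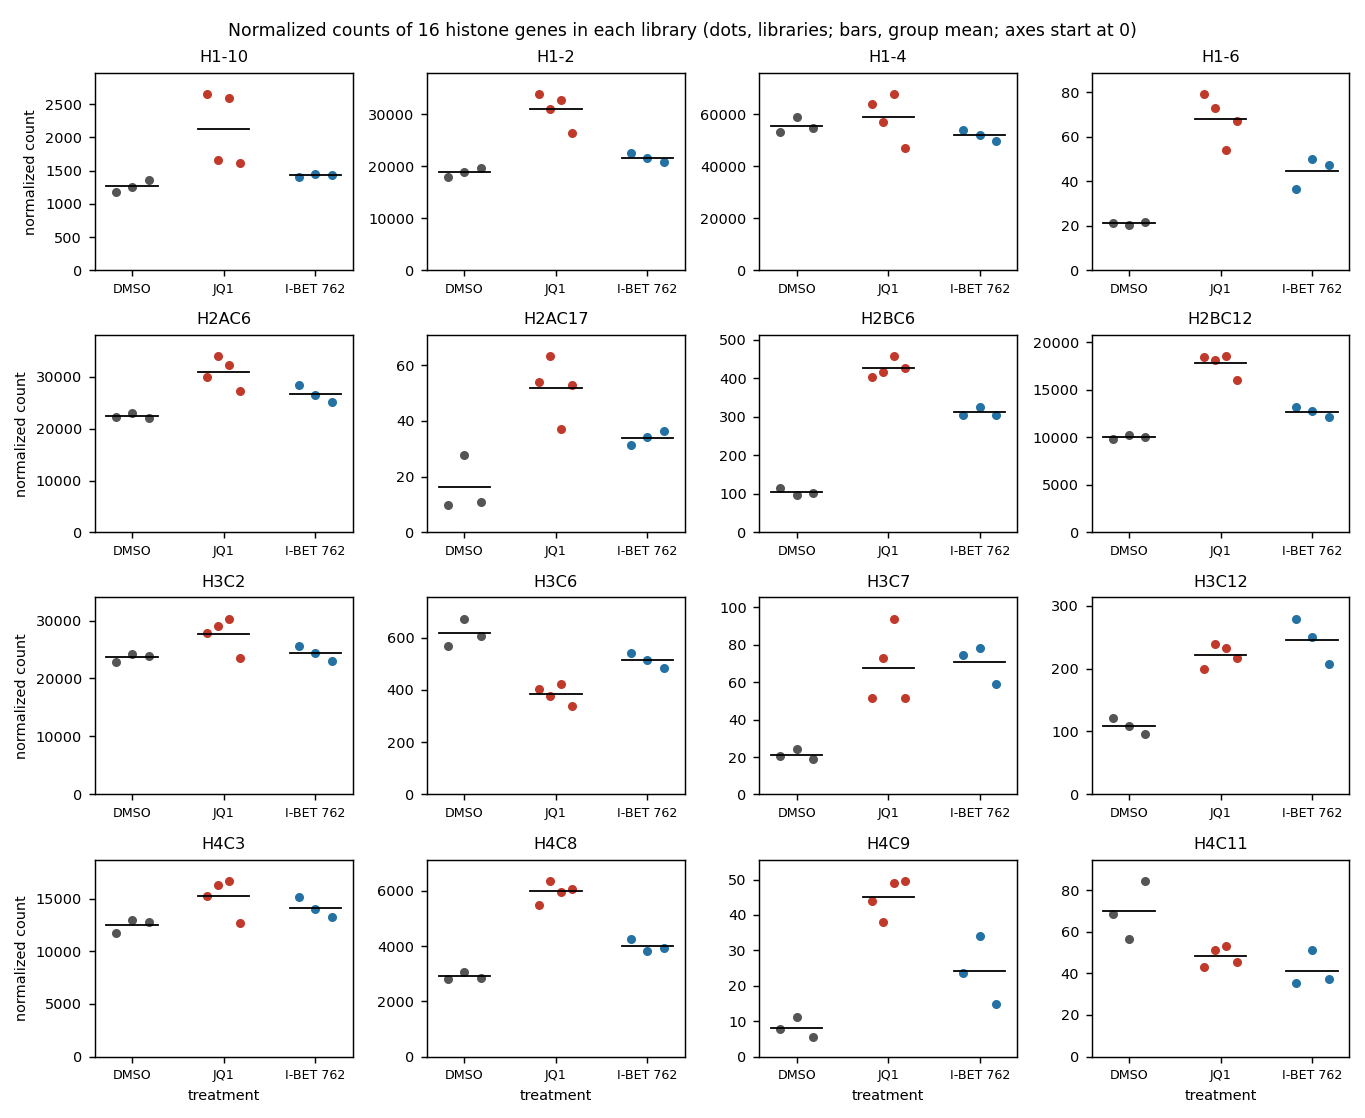
Normalized counts of 16 histone genes in each library, with 3 DMSO, 4 JQ1 and 3 I-BET 762 libraries as dots and the group means as bars, on axes that start at 0. H2BC6 and H4C8 show 3 separate groups with JQ1 highest, H3C7 and H3C12 show both treated groups above DMSO, and H1-4 and H3C2 show overlapping groups.

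The members differed with abundance. Of the 30 with a DMSO mean of at least 1000 normalized counts, 8 rose with JQ1 and 3 with I-BET 762, with 0 called lower in each (2 and 3 lower at an adjusted p under 0.05 with any fold). Of the 22 under 1000, 12 rose and 1 fell with JQ1, and 7 rose and 3 fell with I-BET 762. Among all genes the shares called higher with JQ1 were 10.4% of those at or above 1000 and 15.8% of those below, and with I-BET 762 they were 4.78% and 12.5%. The shares called lower were 11.8% and 32.0% with JQ1 and 8.32% and 26.0% with I-BET 762. The median log2 fold change was 0.37 with JQ1 in the abundant members (0.10 over all abundant genes) and 0.61 in the others (-0.14 over all other genes). Summed over the 71 members, the normalized counts were 325971 to 350268 in DMSO, 354952 to 448462 with JQ1 and 338323 to 369777 with I-BET 762. The summed counts were 1.22 times the DMSO mean with JQ1, where each library exceeded DMSO, and 1.04 times with I-BET 762, where the groups overlapped. As a share of all normalized counts the members took 0.946% to 0.982% in DMSO, 0.904% to 1.13% with JQ1 and 0.910% to 0.979% with I-BET 762, and these ranges overlapped.

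Along chromosome 6, where 37 members were tested, 14 rose and 1 fell with JQ1 and 8 rose and 2 fell with I-BET 762. On chromosome 1, 13 were tested, of which 4 rose and 0 fell with JQ1, and 2 rose and 1 fell with I-BET 762. The chromosome 1 medians were 0.36 and -0.23, and those of chromosome 6 were 0.46 and 0.22. On chromosome 1, H2AC18, H2AC19, H2BC18, H2BC19P, H2BC20P, H3C13, H3C14, H3C15, H4C14 and H4C15 have copies elsewhere for over 50% of their stretches. On chromosome 6, H4C11 and H4C12 do among those tested. The 12 tested members over 50% had medians of 0.54 and -0.21, so position and copied sequence cannot be told apart here. Genes that rose stood beside genes that did not. H1-6 and H2BC6 lie among H2AC6, H1-4, H2BC5 and H4C4, which stayed under the fold threshold, and H3C6 lies between H2AC8 and H1-3, which were both higher with JQ1.

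**Figure D4:**
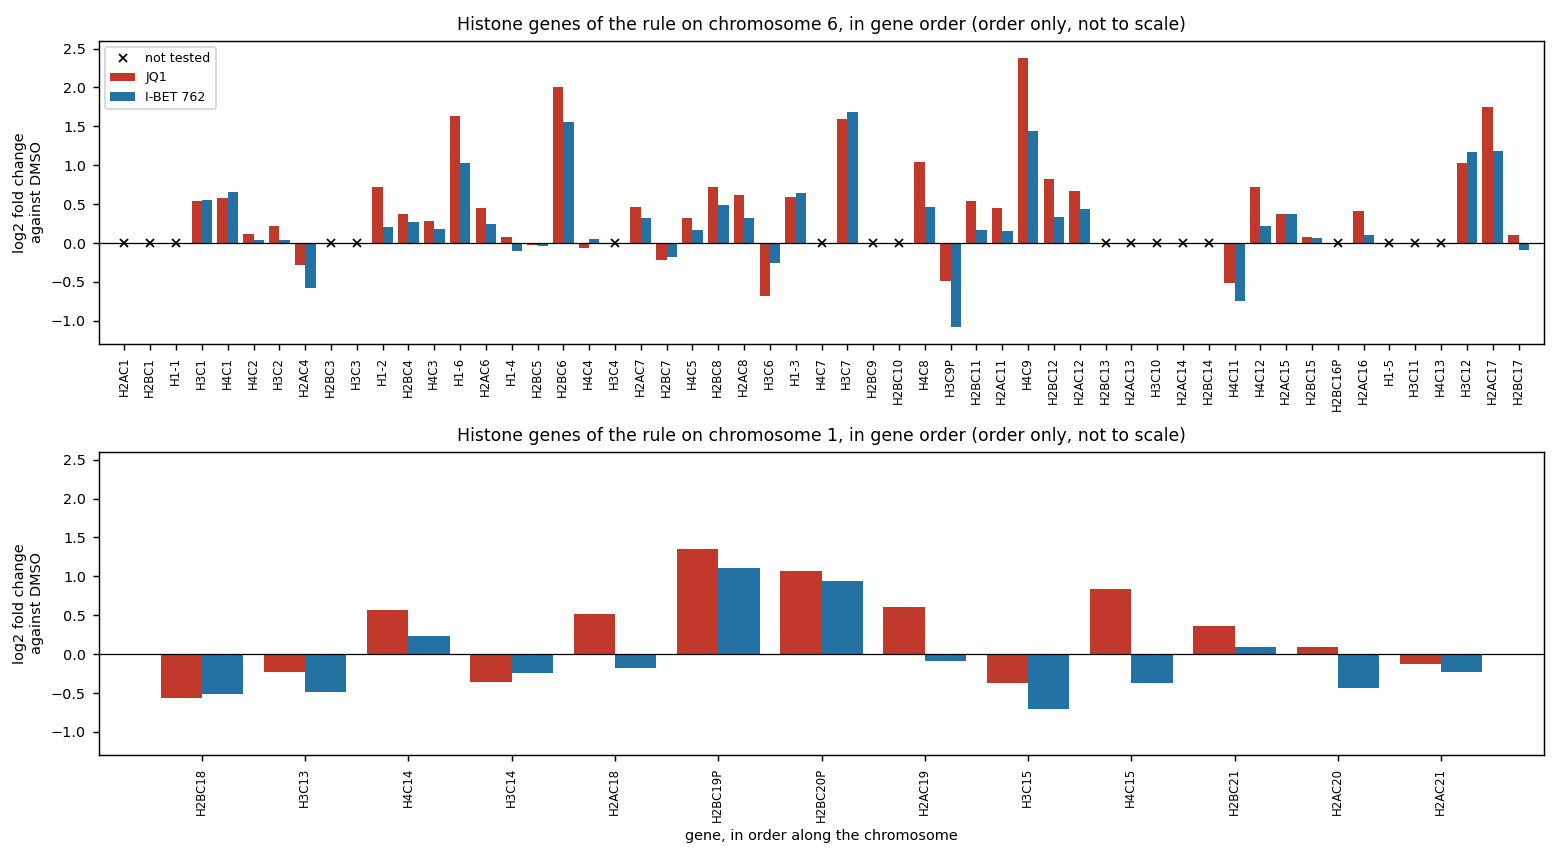
Log2 fold change against DMSO of the histone genes on chromosomes 6 and 1, with JQ1 (red) and I-BET 762 (blue), in their order along the chromosome and not to scale, with crosses for members not tested. High bars such as H1-6, H2BC6, H3C7 and H4C9 stand apart from each other on chromosome 6, and bars below 0 are more frequent with I-BET 762 on chromosome 1, where 9 of 13 values were negative. Many tested genes of chromosome 1, such as H3C13, H3C14 and H3C15, have copies elsewhere for over 50% of their stretches.

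Stretches of 75 exon bases with an exact copy elsewhere in the 194 primary sequences of the genome were found in 28 members and made up over 50% of 15. How the authors treated reads that map to several places is not given in the sources used here. Every stretch of H2AC18, H2AC19, H3C14, H3C15, H4C14, H4C15 and H2BC12L has a copy, so values of these genes are uncertain. Of the 31 tested members with at most 50% copied stretches and no exon overlap with another gene, 10 rose and 1 fell with JQ1 and 5 rose and 1 fell with I-BET 762, with medians of 0.38 and 0.17.

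The inhibitors were also compared directly, at the same dose and time. With JQ1 against I-BET 762, 5 members (H1-6, H2AC18, H2AC19, H4C9 and H4C15) were higher and 0 lower, against 1.73% and 3.59% of all genes. At an unadjusted p under 0.05, 1 member was lower, and limma-voom on the recovered reads called 4 higher and 0 lower. At an adjusted p under 0.05 with any fold, 22 were higher and 1, H3C6, lower with JQ1, against 13.3% and 14.0% of all genes. Every JQ1 library exceeded every I-BET 762 library for 17 members and lay below for 1, where 17.5% and 16.3% of all genes did so. The median difference of the members was 0.23 on the log2 scale, beside -0.00 over all genes.

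H4C9 was 1.92-fold higher with JQ1 than with I-BET 762 (log2 0.94 ± 0.30, adjusted p = 0.0287) and H1-6 was 1.52-fold higher (adjusted p = 0.0298). H4C15, H2AC19 and H2AC18 passed the same test at 2.31-fold, 1.63-fold and 1.62-fold (adjusted p = 0.0126, 0.0191 and 0.0388). H4C15 read 33.9, 37.0 and 43.7 in DMSO, 98.9, 52.2, 36.0 and 118 with JQ1 and 21.6, 34.1 and 33.5 with I-BET 762, with JQ1 libraries 17 and 20 high and 19 within the DMSO range. H2AC19 read 61.0, 52.7 and 67.3 in DMSO, 131, 93.6, 93.0 and 62.9 with JQ1 and 50.2, 56.1 and 63.0 with I-BET 762. H2AC18 read 69.7, 74.0 and 88.3 in DMSO, 144, 84.9, 164 and 75.1 with JQ1 and 62.0, 61.2 and 82.7 with I-BET 762. For these last genes the JQ1 libraries were uneven and overlapped the DMSO range. With I-BET 762 library 21 left out none of the 5 was called and the count was 1. It was 2 without JQ1 library 17, 3 without JQ1 library 19, I-BET 762 library 22 or I-BET 762 library 23, and 7 without JQ1 library 20.

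Under the 1.5-fold threshold but with small adjusted p-values, H4C8 (1.49-fold, adjusted p = 4.49e-06), H2BC12 (1.40-fold, 1.48e-05) and H1-2 (1.43-fold, 9.50e-05) were higher with JQ1. H3C6 was lower, at a ratio of 0.749 (adjusted p = 0.00246). For 32 of the 52 members the 95% interval of the difference lay within 1.5-fold in both directions. Among them were H1-3 (-0.20 to 0.10 on the log2 scale), H3C1 (-0.19 to 0.15), H4C1 (-0.24 to 0.08) and H3C12 (-0.40 to 0.13), genes with similar values for both compounds against DMSO.

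**Figure D5:**
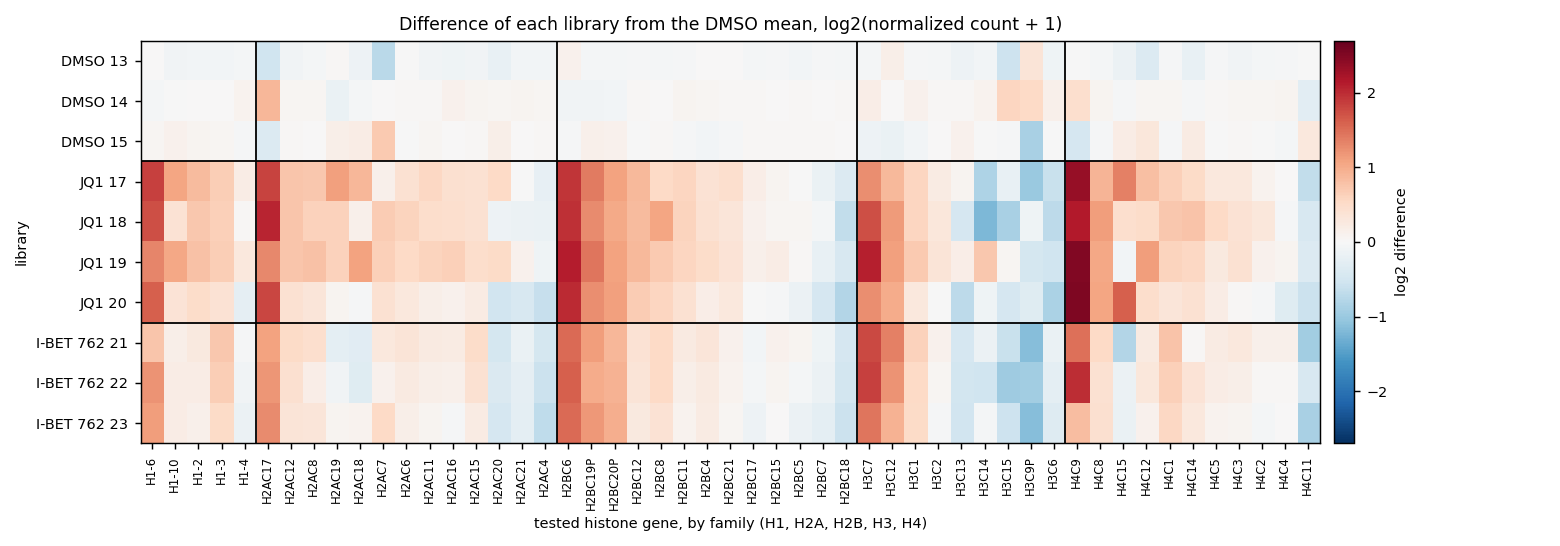
Difference of each of the 10 libraries from the DMSO mean on the log2(normalized count + 1) scale for 51 tested histone genes, by family, from blue (lower) to red (higher). The JQ1 rows are redder than the I-BET 762 rows for most genes, with 41 of 51 differences between the inhibitors above 0, and the row of JQ1 library 20 is paler than those of the other JQ1 libraries.

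JQ1 library 20 stood apart from the other JQ1 libraries in these genes. It was the lowest of the 4 for 37 of 52 members, against 26.3% of all genes tested, and its median difference from the DMSO mean was 0.25 on the log2 scale, beside 0.53, 0.46 and 0.59 in libraries 17, 18 and 19. Without library 20, 24 members rose with JQ1 and the median was 0.53, and without library 17, 16 rose. In 22 of the 52 members, among them H1-2, H1-10, H2AC20, H2BC12, H3C6 and H3C13, JQ1 libraries 17 and 19 both exceeded 18 and 20. This order was picked with the values in view and was not counted over all genes. The labels name no batch.

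Histone supply also depends on histone variants and on factors that make, carry and degrade histone mRNA and protein, which were counted from fixed lists. Beside each list, 13.3% of all genes were called higher and 22.8% lower with JQ1, and 8.96% and 17.9% with I-BET 762. Of 9 tested variants of the core histones, 3 rose and 1 fell with JQ1 and 2 rose and 1 fell with I-BET 762, with medians of 0.33 and 0.19. H3-3B, which encodes the replacement histone H3.3, rose by 1.31 on the log2 scale with JQ1 and 0.68 with I-BET 762, and H3-5, an H3.3-like gene, by 1.37 and 0.65. Their DMSO means were 23597 and 128 normalized counts. Copied stretches were searched only in the members, so whether H3-5 holds reads of H3-3B was not tested. H2AX, the variant phosphorylated at DNA breaks, rose with JQ1 (log2 0.89, adjusted p = 0.000702), and MACROH2A2, a macroH2A gene, fell with both (log2 -1.76 and -1.54). Of 26 genes of histone gene transcription and 3′ end formation, 2 rose and 1 fell with JQ1 and 1 rose and 1 fell with I-BET 762, with medians of 0.10 and 0.08. SLBP, whose product binds the stem-loop, rose with JQ1 (log2 0.64, adjusted p = 2.90e-08) and stood at 0.43 with I-BET 762, under the fold threshold. NCBP2, a subunit of the cap-binding complex, rose by 1.11 and 0.86. COIL, the gene of coilin, fell with JQ1 (log2 -0.83), and LSM11, a subunit of the U7 particle that processes histone pre-mRNA, fell with I-BET 762 (log2 -0.61) and stood at -0.57 with JQ1. NPAT, the coactivator of histone genes, was at 0.25 and 0.16 and did not pass.

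Of 10 genes of histone mRNA decay none was called with either compound. At an adjusted p under 0.05 with any fold, 6 were higher and 2 lower with JQ1, against 36.0% and 35.6% of all genes. With I-BET 762, 5 were higher and 2 lower, against 29.9% and 31.3%. At an unadjusted p under 0.05 the decay list had 6 higher and 2 lower with each compound, and its medians were 0.29 and 0.21. Of 23 histone chaperone and import genes, 1 rose and 2 fell with JQ1, and 1 fell with I-BET 762, with medians of -0.13 and 0.02. ANP32E, a chaperone that removes H2A.Z, fell by 1.27 and 1.18 on the log2 scale. DAXX, a chaperone of H3.3, fell with JQ1 (log2 -1.98, adjusted p = 0.0221) and the importin gene IPO4 rose with it (log2 0.64, adjusted p = 0.0168), both from low and uneven DMSO libraries, with 31.8 ± 37.9 (SD, n = 3) normalized counts for DAXX, an SD above the mean, and 30.1 ± 8.46 (SD, n = 3) for IPO4. Of 22 S phase genes, RRM2, a subunit of ribonucleotide reductase, rose with JQ1 (log2 0.88), MCM5, a subunit of the replicative helicase, fell with both compounds (log2 -1.04 and -0.66), and POLE2, a DNA polymerase subunit, fell with JQ1 (log2 -0.66). The S phase list had medians of 0.01 and 0.05, beside 0.46 and 0.17 for the histone genes, and the part of the S phase share of the cells in the histone values was not tested.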

How the data were processed

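Total RNA of SK-UT-1 cells treated for 48 h with DMSO, JQ1 or I-BET 762 was sequenced. The authors checked reads with FastQC 0.73, trimmed them with Trimmomatic, aligned them to hg38 with HISAT2 2.2.1, counted them on Gencode V41 genes with featureCounts 2.0.3, normalized with DESeq2 and excluded outlier samples; strand and multi-mapping settings are not given in the sources used here. Each deposited value is, on a log2 scale, a normalized count to which 1 was added. Undoing the log gave whole multiples of 1 step per library for 99.73% to 99.77% of values (tolerance 0.01 read), and these multiples were taken as reads. The libraries were grouped by treatment label. Genes with a normalized count of at least 10 in at least 3 libraries were fitted with limma 3.58.1 (R 4.3.3), with 10 libraries in 1 model, an intensity trend, 3 contrasts and Benjamini-Hochberg adjustment over 14839 genes. The groups shared an estimate of the spread, so uneven libraries in any group enter the p-values of every contrast. In simulated libraries of this design (14867 genes), 100 of 100 genes changed 4-fold were called in both comparisons with DMSO, as were 100 and 98 of 100 changed 2-fold with JQ1 and I-BET 762, and 3 and 0 unchanged genes. The simulation gave every gene and group the same dispersion and changed no gene of very low DMSO level. In these data the median log2 range of the members was 0.39 over 4 JQ1 libraries and 0.15 over 3 DMSO libraries, so these rates may not hold here.

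The histone genes and the gene lists were chosen with earlier results of these data known. Counts cover all members, but 1 member is not reported individually here. Values in each library are given for the other tested H1 genes, the 2 highest genes per kb in each core family, up to 2 rises and 2 falls per family called with both compounds and up to 5 members called between the compounds, and any other member was picked with its values in view. Alternatives were other pseudocounts, filters, scalings and fold thresholds, no intensity trend, only the 2 groups compared, limma-voom on the recovered reads, and leaving out each library. Positions and exon overlaps are from Gencode V44, and promoters from RefSeq (GRCh38.p14).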

Additional observations from a re-analysis of the deposited data

Results flagged for a closer look

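In each of the 52 tested histone genes, the 4 JQ1 libraries were examined for a library far from the others, and in 4 genes the lowest library was farther from its nearest neighbour than the 95% limit of Dixon's test allows for 4 samples. Chance gives such a result in about 1 of 20 groups. The library was JQ1 library 20 in each case. H1-3 had a normalized count of 1892 there, against 2258 to 2278 in the other JQ1 libraries. H2AC12 had 5028 against 6357 to 6397. H2BC11 had 13108 against 14685 to 14903, and H2BC12 had 16065 against 18175 to 18515. In H1-3, H2AC12 and H2BC12 the value of library 20 was still above every DMSO library, as it was in H2BC11. Groups of 3 libraries were not examined in this way.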

How the results depend on the processing

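No paired analysis was possible because the replicate numbers 13 to 24 are all different. Of the 20 members higher with JQ1, 15 were called with each library left out, and of the 10 higher with I-BET 762, 10 were. At the 1.5-fold threshold, 11 and 8 were called in every fit except that at a mean normalized count of at least 100. That fit tested 13 of the 20 and 6 of the 10 and called each of those. Low genes such as H1-6, H2AC17, H3C7 and H4C9 were not tested in it. H3C6 was called lower with JQ1 in every fit, apart from the fold threshold of 2. Members higher with JQ1 numbered 13 at a mean normalized count of at least 100, which tests fewer genes, 11 at equal totals, 33 with no fold threshold, 9 at a fold over 2, and 16 to 24 with 1 library left out (16 without JQ1 17, 24 without JQ1 20). Members lower with JQ1 numbered 3 among all symbols above 0, 3 at equal totals, 2 at equal upper quartiles, 5 with no fold threshold, 0 at a fold over 2, and 1 to 3 with 1 library left out (3 without DMSO 13, 2 without DMSO 14, JQ1 17 or JQ1 19). Members higher with I-BET 762 numbered 6 at the mean of at least 100, 22 with no fold threshold, and 10 to 11 with 1 library left out. Members lower with I-BET 762 numbered 1 among all symbols above 0, 0 at the mean of at least 100, 6 at equal totals, 7 with no fold threshold, 1 at a fold over 2, and 1 to 3 with 1 library left out (1 without DMSO 14 or I-BET 762 22). Members higher with JQ1 than with I-BET 762 numbered 2 among all symbols above 0, 0 at the mean of at least 100, 3 at equal totals, 3 at equal upper quartiles, 3 without the intensity trend, 22 with no fold threshold, 1 at a fold over 2, and 1 to 7 with 1 library left out, while 1 was lower with no fold threshold. Apart from the thresholds and filters, the cause was not tested.

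Log2 fold changes near 0 changed sign. At equal totals these were, with JQ1, H1-4 at -0.11, H2AC20 at -0.088, H2BC15 at -0.11, H2BC17 at -0.083 and H4C2 at -0.068, and with I-BET 762, H2BC15 at -0.030, H2BC21 at -0.0031, H3C2 at -0.055, H4C2 at -0.061 and H4C4 at -0.041. At equal upper quartiles H4C2 was at -0.0013 with I-BET 762. With 1 library left out, the range was -0.047 to 0.30 for H2AC20, -0.053 to 0.027 for H2BC5 and -0.11 to 0.016 for H4C4 with JQ1, and -0.043 to 0.67 for H2AC7, -0.10 to 0.011 for H2BC5 and -0.016 to 0.081 for H4C2 with I-BET 762. None of these genes was called in either comparison with DMSO. In all, 2020 other values kept their direction and side of the threshold, 57 came to pass it and 60 no longer passed. Low genes such as H4C9 and H2AC17 rest on few reads, and with 3 or 4 libraries a group small differences may be missed.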
